A study of Arabidopsis thaliana with 28 samples.

Results

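Phosphoribulokinase (PRK, AT1G32060), sedoheptulose bisphosphatase (SBPASE, AT3G55800), the sucrose phosphate synthase gene ATSPS4F (AT4G10120) and the catalytic subunit of ferredoxin-thioredoxin reductase (AT2G04700) were followed in Arabidopsis thaliana grown with and without sucrose. They were taken as the genes whose probe is assigned to exactly 1 gene in the platform annotation, and each had 1 such probe (probes 3151, 1517, 2649 and 3436 in the order above). They are 4 of 689 genes with a probe of their own. All plants were wild type of the Columbia-0 ecotype and grew on Murashige and Skoog (MS) medium, which supplies mineral nutrients. Of the 28 arrays, 14 came from plants on this medium with 2% sucrose and 14 from plants on it without sucrose. The labels give no organ, age, light regime or number of plants, and none of the 7 root, seed and flower markers looked up had a probe of its own, so the tissue could not be checked.

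The Calvin-Benson cycle fixes carbon dioxide in the chloroplast. PRK makes its acceptor, ribulose 1,5-bisphosphate, and SBPASE commits carbon to the regeneration of that acceptor. Both enzymes are switched on in the light when thioredoxins reduce their disulfides. The thioredoxins in turn receive electrons from photosystem I through ferredoxin and ferredoxin-thioredoxin reductase, whose catalytic subunit carries an iron-sulfur cluster beside its active disulfide. Sucrose phosphate synthase acts downstream in the cytosol, where it makes the phosphorylated precursor of sucrose.

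The calls differed between these genes, but whether their fold changes differ from each other was not tested. AT2G04700 was 2.87-fold higher and PRK 1.92-fold higher on sucrose. For ATSPS4F no difference was detected, with a fold between 0.728 and 1.29 (95% confidence interval). SBPASE was listed at 0 on 27 of 28 arrays, so its response cannot be read from these data. The comparison asked which transcripts differ between plants with and without sucrose in the medium, and over the 3439 probes 17.9% passed as higher on sucrose and 12.4% as lower (30.4% in all). With the values as deposited these shares were 5.5% and 21.5%, so the balance of directions depends on the scaling. The 2 of 4 genes called higher, or 2 of the 3 with a signal above the floor, are read against those shares.

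Each array gave 1 intensity per probe in arbitrary units, and 11.9 to 17.5% of the probes of an array were listed at 0. Array medians ran from 0.161 to 0.438 as deposited. Arrays were quantile normalized, values under 0.0582 (the 5th percentile of positive normalized values, here called the floor) were raised to it, and log2 was taken. Of the 28 arrays, 26 correlated best with the array of the consecutive replicate number in their group, so consecutive arrays were averaged into 7 sets per group. Whether sets are separate cultures is not labelled, so the spread behind the p-values may be technical only. Sucrose set 1 correlated at 0.938 on average with the no-sucrose sets and at 0.799 with the other sucrose sets, against its label. No-sucrose sets 1 and 2 also stood apart, with mean correlations of 0.889 and 0.890 with their own group, where no-sucrose sets 3 to 7 had 0.923 to 0.941. Median deposited signals were 0.182 and 0.213 in no-sucrose sets 1 and 2 and 0.344 to 0.432 in no-sucrose sets 3 to 7. They were 0.339 in sucrose set 1 and 0.163 to 0.213 in sucrose sets 2 to 7, so brightness was lower on sucrose in all but the 3 sets that stood apart, whose brightness was near that of the other medium. The part of brightness in the results was not tested. A wrong label of sucrose set 1 cannot be decided from these data, so every sucrose mean below holds a set that may not belong to it.

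PRK, the kinase that closes the cycle, had a bright signal on every array. On the 14 no-sucrose arrays its normalized signal was 0.529 at the lowest, 0.805 at the median and 1.44 at the highest. On the 14 sucrose arrays these values were 0.739, 1.74 and 2.54. The groups overlapped: each of the 7 sucrose sets exceeded the mean of the no-sucrose group, but no-sucrose sets 1 and 2, at 1.43 and 1.28, lay above sucrose sets 1 and 2, at 0.921 and 1.09. The sucrose sets 3 to 7, between 1.45 and 2.53, lay above every no-sucrose set, set 3 only narrowly. Mean log2 signals were 0.71 ± 0.55 on sucrose and -0.23 ± 0.51 off it (SD, n = 7 sets each), a difference of 0.94 ± 0.28 on the log2 scale (SE) at a limma adjusted p of 0.0245. By size of fold PRK was number 279 of the 616 probes called higher, so many probes differed by more.

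The call of PRK was close to the threshold. With the values as deposited the log2 fold changes of all probes had a median of -0.31, and that of PRK was 0.57 (limma adjusted p = 0.115), or 0.88 above that median. With arrays scaled to a common median it was 1.19 (limma adjusted p = 0.0517), and without no-sucrose set 7, the set with the lowest PRK signal, it was 0.83 (limma adjusted p = 0.0506). Without sucrose set 1 and no-sucrose sets 1 and 2 it was 1.35 (limma adjusted p = 0.000742). Those sets were picked for lying away from their group in the same data, so leaving them out favours larger differences by construction.

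**Figure D1:**
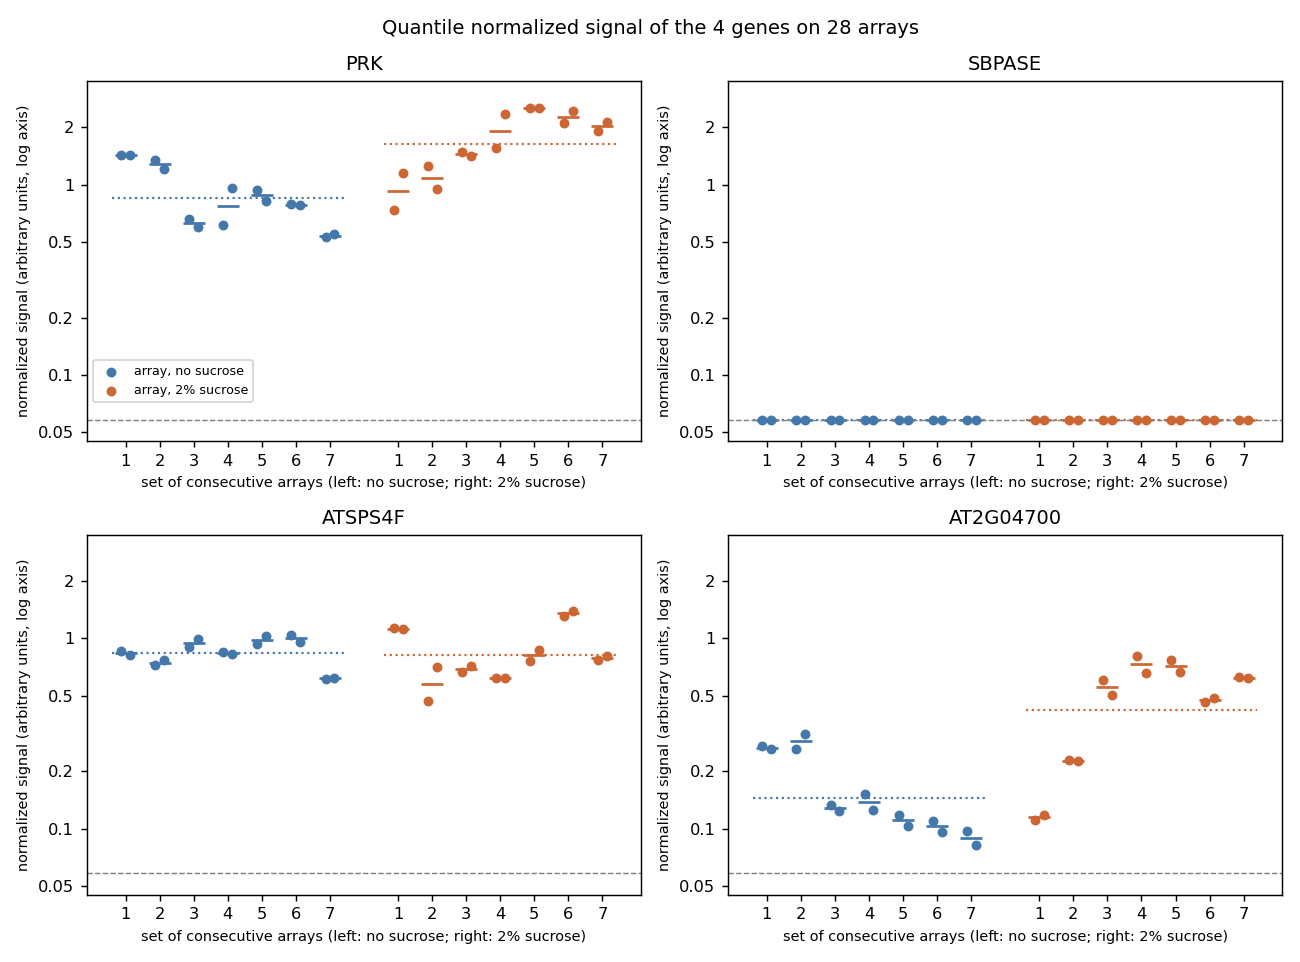
Quantile normalized signal (arbitrary units, log axis) of PRK, SBPASE, ATSPS4F and AT2G04700 on 28 arrays, in 7 sets of 2 consecutive arrays per medium; dots are arrays, short bars are sets, dotted lines are group means of the sets on the log2 scale and the dashed line is the floor of 0.0582. PRK and AT2G04700 are higher in sucrose sets 3 to 7 than in no-sucrose sets 3 to 7, ATSPS4F overlaps throughout, and SBPASE lies at the floor on every array.

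SBPASE, the phosphatase of the same regeneration phase, gave no usable signal. Its deposited value was 0 on all 14 no-sucrose arrays and on 13 of the 14 sucrose arrays. The exception was the sucrose array of replicate 3, at 0.0210 as deposited and 0.0162 after normalization, which is below the floor. It was at or below the floor on 28 of 28 arrays, and no fold is given. A listed 0 is no measurement of an absent transcript: 201 of the 3439 probes, 45 of them assigned to 1 gene, were at 0 on at least 27 arrays.

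AT2G04700, the catalytic subunit of the reductase that feeds electrons to thioredoxins, was called higher on sucrose at a signal nearer the floor. Whether its difference between the media exceeded that of PRK was not tested. Its normalized signal on the no-sucrose arrays was 0.0818 at the lowest, 0.125 at the median and 0.314 at the highest. On the sucrose arrays it was 0.111, 0.555 and 0.811. No array was at the floor, and the lowest was 1.40 times the floor. The table gives no measured background, so how much of the no-sucrose signal is background is unknown. Arrays of a set differed by at most 1.23-fold for this probe, and the SD between arrays of a set was 0.13 on the log2 scale against 0.85 between sets.

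The sets of AT2G04700 fell in a wide range within each medium. Sucrose sets 3 to 7 lay between 0.476 and 0.730, above every no-sucrose set. Sucrose set 1, at 0.115, lay among no-sucrose sets 3 to 7, which were between 0.0890 and 0.139. Sucrose set 2, at 0.228, lay between those and no-sucrose sets 1 and 2, at 0.266 and 0.287. Mean log2 signals were -1.26 ± 1.002 on sucrose and -2.78 ± 0.67 off it (SD, n = 7 sets each). They differed by 1.52 ± 0.44 (SE), with a limma adjusted p of 0.0237, and 6 of the 7 sucrose sets exceeded the mean of the no-sucrose group. This was number 50 by size among the 616 probes called higher and number 10 among the 118 of these that have 1 gene.

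The call of AT2G04700 was also close to the threshold in some fits. It was kept with the values as deposited, at 1.96-fold (limma adjusted p = 0.0370), and without any 1 set. The limma adjusted p was then between 0.00155 (3.57-fold, without sucrose set 1) and 0.0498 (2.65-fold, without no-sucrose set 7). With the set number as a block in the fit, neither AT2G04700 nor PRK was called (limma adjusted p = 0.111 and 0.105). Without sucrose set 1 and no-sucrose sets 1 and 2 AT2G04700 was 4.61-fold higher (limma adjusted p = 0.000167). Its sets were then apart by group: 0.228 to 0.730 with sucrose and 0.0890 to 0.139 without. PRK also did not overlap among these sets, at 1.09 to 2.53 and 0.539 to 0.880. The choice of sets favours such a separation: 33.8% of all probes did not overlap then, against 1.92% with all sets, and 27.7% were called higher, against 17.9%.

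The standing of no-sucrose sets 1 and 2 depended on the scaling. As deposited AT2G04700 had a mean of 0.180 and 0.228 in these sets and 0.138 to 0.202 in no-sucrose sets 3 to 7. The 2 dim sets were thus near the others before normalization and above them after it. For PRK they were higher on both scales, at 1.49 and 1.34 as deposited against 0.752 to 1.03 in no-sucrose sets 3 to 7.

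The place of a probe within its own array needs no scaling between arrays. Quantile normalization also sets each value by its place within the array. The tests on this place thus largely repeat those on the normalized signal and are no separate support for the calls. AT2G04700 was above 33.0 ± 12.6% of the probes of its array without sucrose and above 64.7 ± 21.4% with sucrose (SD, n = 7 sets each), a difference of 31.8 percentage points (exact permutation test of the sets, two-sided p = 0.0117). PRK moved from 83.2 ± 6.41% to 91.8 ± 3.75% (SD, n = 7 sets each; exact permutation test, two-sided p = 0.00991). ATSPS4F was at 83.8 ± 3.43% and 82.6 ± 5.82% (SD, n = 7 sets each; exact permutation test, two-sided p = 0.641). With the tests on log2 signals, 6 such tests were run. For AT2G04700 the difference lay in sucrose sets 3 to 7, while sucrose sets 1 and 2, at 25.7% and 44.0%, stayed within the range of the no-sucrose sets (22.1 to 52.3%). PRK and ATSPS4F were above at least 73.6% and 74.8% of the probes in every set.

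**Figure D2:**
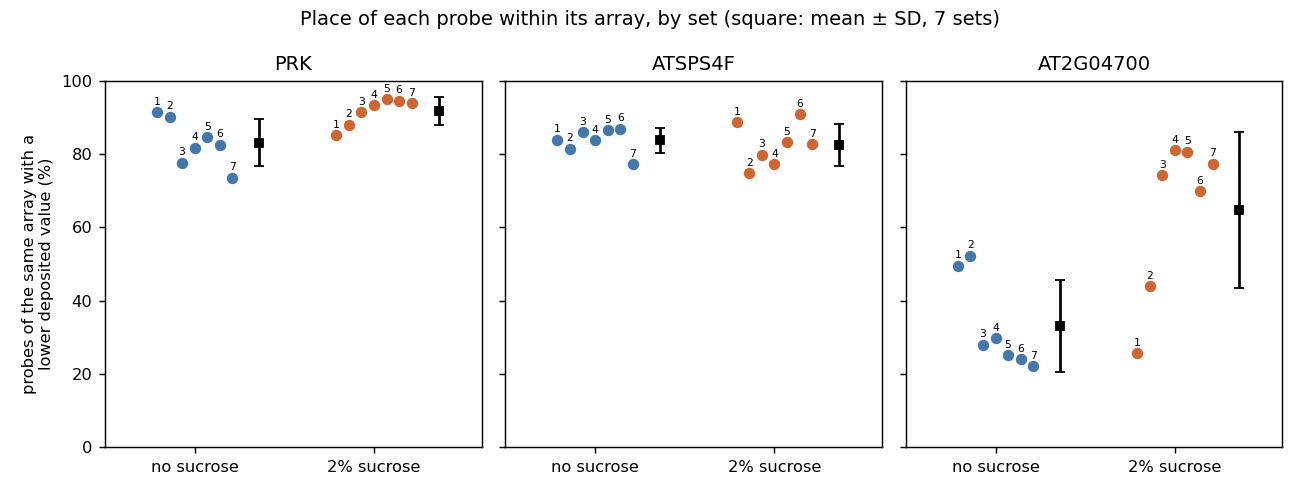
Share of the probes of an array with a lower deposited value than PRK, ATSPS4F or AT2G04700, in percent, averaged over the 2 arrays of each set; dots are sets with their numbers, squares are means with SD over 7 sets. AT2G04700 lies at 22.1 to 52.3% without sucrose and at 69.9 to 81.1% in sucrose sets 3 to 7, with sucrose set 1 at 25.7% and set 2 at 44.0%.

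ATSPS4F, which belongs to the sucrose-making side of carbon metabolism, differed between sets but not detectably between media. Its normalized signal on the no-sucrose arrays was 0.614 at the lowest, 0.854 at the median and 1.05 at the highest. On the sucrose arrays it was 0.466, 0.764 and 1.40. The sucrose sets spanned the whole range of the no-sucrose sets and went beyond it on both sides, from 0.574 in set 2 to 1.35 in set 6. Mean log2 signals were -0.29 ± 0.45 on sucrose and -0.25 ± 0.25 off it (SD, n = 7 sets each), and their difference was -0.05 ± 0.19 (SE), at a limma adjusted p of 0.934. Its 95% confidence interval ran from -0.46 to 0.37, and the sign turned with arrays scaled to a common median (0.15). With the values as deposited it was -0.47, or -0.16 relative to the median of all probes (limma adjusted p = 0.228).

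PRK and AT2G04700 shared their lowest sucrose sets and their highest and lowest no-sucrose sets, but the other sets were ordered differently. Among sucrose sets 3 to 7, set 6 was the lowest for AT2G04700, at 0.476, and the second highest for PRK, at 2.26. For both PRK and AT2G04700, sucrose sets 1 and 2 were the lowest of the sucrose sets, no-sucrose sets 1 and 2 the highest without sucrose, and no-sucrose set 7 the lowest. ATSPS4F shared the low no-sucrose set 7, but its sucrose set 1, at 1.13, was the second highest of its group. Of these, sucrose set 1 and no-sucrose sets 1 and 2 stood apart over all probes, and nothing in this order was shown to be particular to PRK and AT2G04700.

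Few other genes of these pathways could be measured. Of 27 Calvin-Benson cycle genes looked up, 3 had a probe of their own: PRK, SBPASE and AT5G44520, entered in the list as a ribose 5-phosphate isomerase gene. AT5G44520 was listed at 0 on 19 of 28 arrays and was at or below the floor on all of them, so PRK was the only measured gene of the cycle above the floor. Of 22 genes of the ferredoxin-thioredoxin system and the enzymes it controls, 3 had a probe of their own and 2 of these rose, AT2G04700 and AT5G58330, where 17.9% of all probes did. As deposited only AT2G04700 of the 3 was called higher, where 5.5% of all probes were. The median log2 fold change of the 3 was 0.48, against 0.00 over all probes. With 3 genes this is only the value of AT5G58330, and NTRC was at -0.24, so it is no measure of the system as a whole. Of 12 genes of sucrose synthesis and triose phosphate export only ATSPS4F had one, and of 14 photorespiration genes none had. Another 5 listed genes were found only on probes assigned to several genes and were not named from them.

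AT5G58330, the NADP-dependent malate dehydrogenase that exports reducing power from the chloroplast and is itself switched on by thioredoxin, was 1.39-fold higher on sucrose. Its normalized signal ran from 0.211 over a median of 0.273 to 0.444 on the no-sucrose arrays, and from 0.306 over 0.424 to 0.576 on the sucrose arrays. Each of the 7 sucrose sets exceeded the mean of the no-sucrose group, while no-sucrose sets 1 and 2, at 0.433 and 0.377, lay within the range of the sucrose sets. On the log2 scale the groups differed by 0.48 ± 0.15 (SE), at a limma adjusted p of 0.0326. With the values as deposited it turned to -0.14 (limma adjusted p = 0.542), which is 0.17 above the median of all probes. Without any 1 of no-sucrose sets 3 to 7 or of sucrose sets 2, 3, 5 and 6 the call was lost, with limma adjusted p between 0.0563 and 0.0669. It was also lost when the dimmest 25% of probes were left out (limma adjusted p = 0.0504).

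NTRC, a chloroplast NADPH-dependent thioredoxin reductase that reduces its own thioredoxin domain without ferredoxin, was not called. Its normalized signal ran from 0.212 over a median of 0.278 to 0.537 on the no-sucrose arrays, and from 0.148 over 0.271 to 0.466 on the sucrose arrays, with the groups overlapping. On the log2 scale sucrose minus no sucrose was -0.24 ± 0.23 (SE), at a limma adjusted p of 0.449, and its 95% confidence interval spanned -0.73 to 0.25. With the values as deposited it was -0.91 (limma adjusted p = 0.0121), or -0.59 relative to the median of all probes. Whether NTRC and AT2G04700 responded differently to sucrose was not tested.

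**Figure D3:**
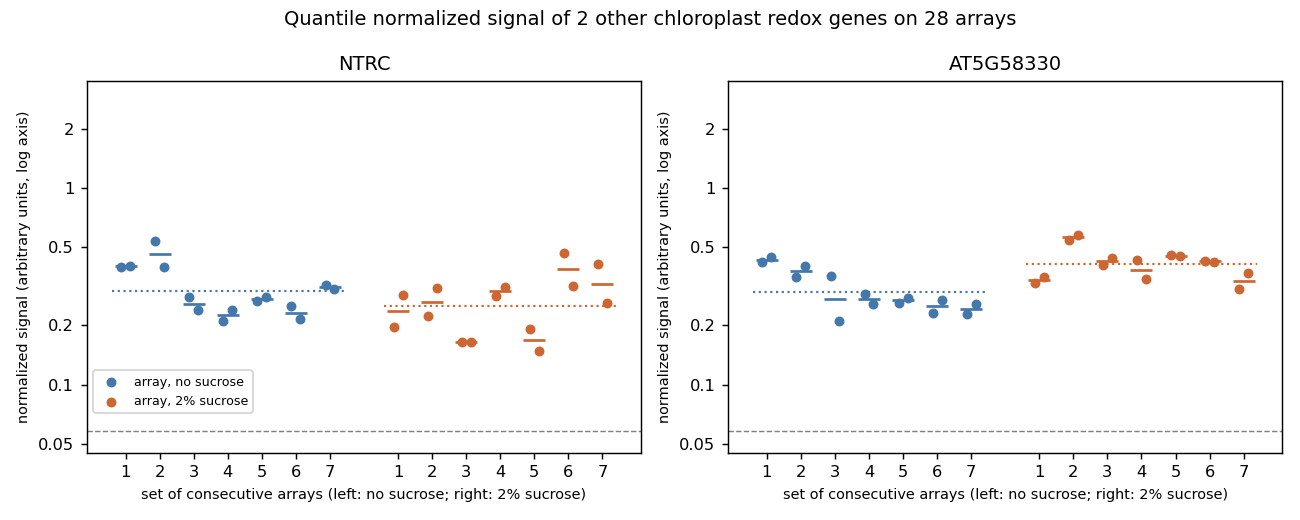
Quantile normalized signal (arbitrary units, log axis) of NTRC and of AT5G58330, the NADP-dependent malate dehydrogenase gene, on 28 arrays in 7 sets per medium; dots are arrays, short bars are sets, dotted lines are group means and the dashed line is the floor of 0.0582. The NTRC groups overlap, and AT5G58330 is above 0.33 in every sucrose set and below 0.28 in no-sucrose sets 3 to 7.

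Genes with the most similar profiles were found among 572 other probes of 1 gene above the floor in at least 10 of the 14 sets. They were picked for their correlation, so no test is given, and all genes were read on the same arrays, which also differed in overall brightness. Most like PRK were AT1G51080 (Pearson r = 0.958 and Spearman rho = 0.965 over 14 sets), AT3G06870 (r = 0.950) and AT1G54500 (r = 0.940). With the group means removed these correlations were 0.933, 0.908 and 0.882. The 3 sets that stood apart over all probes were still among the 14, so this likeness was not shown to be particular to these genes. All 3 were higher on sucrose, with log2 fold changes of 1.42, 1.85 and 1.46 (limma adjusted p between 0.00740 and 0.0113).

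Most like AT2G04700 were AT5G63390 (Pearson r = 0.959 and Spearman rho = 0.969 over 14 sets), AT1G15410 (r = 0.953) and AT1G01500 (r = 0.948). Their log2 fold changes were 0.73, 1.30 and 0.96, and AT1G01500 did not pass (limma adjusted p = 0.0513). AT5G63390 lost its call with the values as deposited (limma adjusted p = 0.251). It also lost the call in 5 of the 14 fits that left out 1 set (limma adjusted p up to 0.0535). Most like ATSPS4F were AT1G15140 (r = 0.848), AT2G43760 (r = 0.774) and AT1G74470, annotated as geranylgeranyl reductase (r = 0.715). None of these 3 was called, with limma adjusted p between 0.431 and 0.951.

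**Figure D4:**
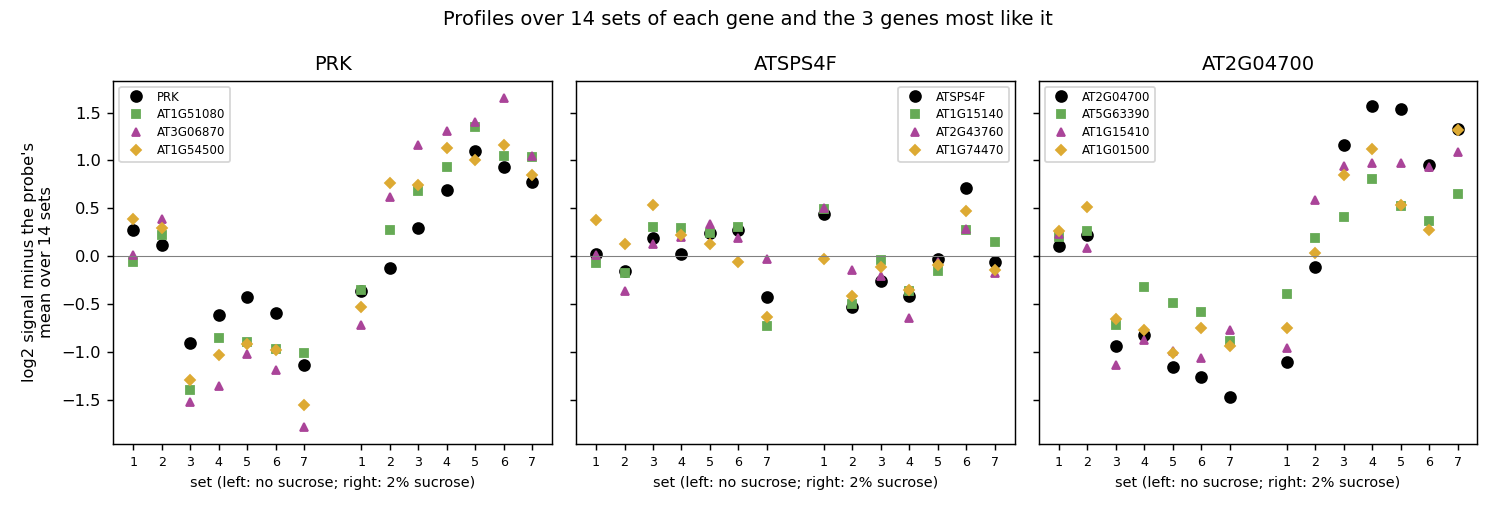
Log2 signal minus the mean of the probe over 14 sets, for PRK, ATSPS4F and AT2G04700 (black circles) and the 3 genes most correlated with each (coloured symbols), by set and medium. The genes like PRK and AT2G04700 are low in no-sucrose sets 3 to 7 and in sucrose set 1, and those like ATSPS4F stay within about 1 log2 unit of their mean.

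**Figure D5:**
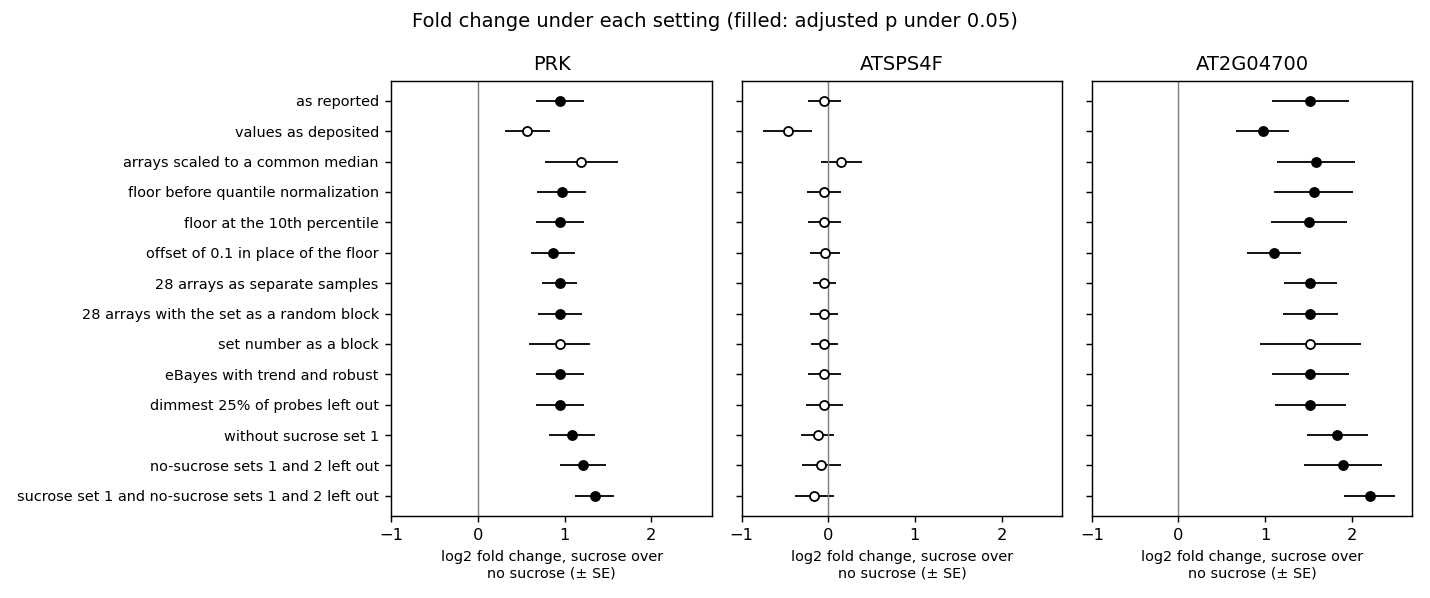
Log2 fold change of sucrose over no sucrose with SE for PRK, ATSPS4F and AT2G04700 under the reported setting and 13 alternatives; filled symbols have a limma adjusted p under 0.05. PRK and AT2G04700 are above 0 throughout, from 0.57 to 1.35 and from 0.97 to 2.20, and ATSPS4F lies between -0.47 and 0.15.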

How the data were processed

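Total RNA was measured on 28 arrays. The deposited table gives linear intensity values, never below 0; how they were scanned, background-corrected and normalized is not given in the sources used here. The highest value is 100, as if arrays had been scaled to a maximum. All 28 columns matched a sample.

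Values were quantile normalized, raised to the floor and log2 transformed, in that order, so that scaling could not separate values at the floor. Consecutive arrays were averaged. Groups were compared with limma 3.58.1 (lmFit, eBayes, two-sided) in R 4.3.3, adjusted by Benjamini-Hochberg over 3439 probes at 0.05. The number of sets, 7 per group, limits the precision. The fit was also run on simulated data with independent noise for each probe and set. These held no sets that stand apart and no difference in brightness, so they do not show how such features affect the calls.

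Names came from the platform annotation, through RefSeq identifiers of TAIR10.1 (690 of 692 probes of 1 gene matched); no positions are given because no build is named. Named were the 4 genes, the genes of 5 pathway and marker lists (82 genes) with a probe of their own, and the 3 genes most correlated with each of the 4 that had signal in at least 10 sets. Planned promoter motifs were not searched. Genes, lists and sets were chosen with earlier results of these data known, so calls that those results already showed are no independent support.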

Additional observations from a re-analysis of the deposited data

How the results depend on the processing

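Replicate numbers are shared between the groups, and whether they mark pairs is not labelled. Deviations of same-numbered sets from their group means correlated at -0.54 for set 1. For sets 2 to 7 these correlations were -0.08 to 0.13, which does not decide whether the sets are paired. With the set number as a block, 405 probes were called, against 1044, and PRK and AT2G04700 were not called, with limma adjusted p of 0.105 and 0.111; the estimates, 0.94 and 1.52 (log2), cannot change with this block. The block also ended the calls of AT5G58330, AT1G51080, AT3G06870, AT1G54500, AT1G15410 and AT5G63390. As deposited PRK was at 0.57 (adjusted p = 0.115), with common medians at 1.19 (adjusted p = 0.0517). Leaving out 1 set at a time gave 0.83 to 1.08 for PRK (not called without no-sucrose set 7), 1.39 to 1.83 for AT2G04700 (always called, adjusted p up to 0.0498), and -0.17 to 0.04 for ATSPS4F, whose sign turned without sucrose set 2 (0.0387) or 4 (0.02) and with common medians (0.15). The same left 757 to 1449 probes called. With 28 arrays as separate samples 1727 were called, and 1682 without sucrose set 1 and no-sucrose sets 1 and 2. The share of calls that were higher was 59.0%, but 20.4% as deposited (189 higher and 739 lower). AT5G58330 turned to -0.14 as deposited and AT1G74470 to 0.25 with common medians. AT1G15140 turned without no-sucrose set 3, 4 or 6 (0.0052, 0.0035 and 0.0053) or sucrose set 2 or 4 (0.0382 and 0.02). The causes were not tested. SBPASE had 0 sets above the floor as deposited, with common medians and with the floor at the 10th percentile, and no fold was computed for it under any alternative.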
